A study of Mus musculus with 128 samples.

Results

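The genes described here encode the enzymes that join a sugar, sulfate or glutathione to other molecules: the UDP-glycosyltransferases (Ugt), the cytosolic sulfotransferases (Sult) and the soluble glutathione S-transferases (Gst). They were taken by symbol from the tables of 8 mouse tissues, leaving out symbols marked as pseudogenes, and kept where the mean of a tissue's 16 libraries reached 20 normalised reads in at least 1 tissue. Of 66 such symbols 51 were kept, from 55285 symbols in each table: 22 Gst, 19 Ugt and 10 Sult genes. Just inside the limit were Gsta5 with a mean of 51.5 in Kidney and Sult2a7 with 56.1 in Liver. Just outside it were Gstt4 with 8.25 in Aorta and Sult2a3 with 6.22 in Kidney. Messenger RNA had been sequenced from male wild-type C57BL/6J mice, untreated, at 6, 15, 24 and 30 months of age, from the aorta, brain, heart, kidney, liver, lung, skin and gastrocnemius muscle (called Muscle here). Each tissue and age had 4 libraries. The Aorta records give the age in their titles and name neither sex nor strain, which for all tissues stand in the series' own description. The labels do not say that the libraries of a group came from separate mice, so p-values measure the spread between these libraries.

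Conjugation makes fat-soluble molecules soluble in water, so that they can leave in bile or urine. UDP-glucuronosyltransferases sit in the endoplasmic reticulum and transfer glucuronic acid to bilirubin, steroids, phenols and drugs. Sulfotransferases use the activated sulfate PAPS on phenols, steroids and bile acids, and glutathione S-transferases join glutathione to electrophiles, among them products of lipid peroxidation. Liver and kidney are the best known sites of this chemistry, and several of the mouse genes are known to differ between the sexes. The genes of the Ugt1 locus share their last exons and differ by a first exon with its own promoter.

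Values are normalised reads: the reads of a gene divided by 1 size factor per library, set within each tissue's table. Changes are log2 fold changes against 6 months on the log2(value + 1) scale with their standard errors (SE), 4 libraries per age. The adjusted p comes from limma-trend (two-sided, Benjamini-Hochberg over the genes tested in the tissue), and rose and fell are used where it lies under 0.05. The changes at 15, 24 and 30 months share the same 6-month libraries. In bulk tissue, fewer cells of a type and less RNA per cell cannot be told apart.

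Recovered depth ran from 7.65 to 82.8 M reads per library, with a median of 15.6. Each tissue held its own defining markers, such as the hepatocyte genes in Liver, which summed to 1608120 or more normalised reads in every 6-month library. Neuronal markers were high in Brain, and in Aorta the brown adipocyte markers summed to between 43122 and 108193 at 6 months. Among the libraries that stand apart from the rest of their tissue by rank correlation over genes are Heart at 24 months, replicate 4, Liver at 30 months, replicate 3, and Kidney at 30 months, replicates 3 and 4. Muscle at 30 months, replicate 3, does so as well. The changes called in Liver and Kidney at 30 months are also given without the libraries named for those tissues. Leukocyte markers rose with age in several tissues, 5 of 5 in Liver, 4 of 5 in Kidney and 3 of 4 in Heart at 30 months. Their sum went from 1295 to 2416 up to 3832 to 11066 in Liver, and from 529 to 664 up to 1579 to 5533 in Kidney. Their part in the results on the conjugating enzymes was not tested.

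The tables were normalised separately, so levels set across tissues are approximate. Liver had the highest mean of 29 of the 51 genes and Kidney that of 13. The other 9 were highest in Aorta, Brain, Lung, Skin or Muscle. A mean of 20 or more was reached in all 8 tissues by 15 genes, of which 14 were Gst genes and 1 was Sult1a1, and in 1 tissue alone by 11. Levels per length, in RPKM, the reads per kilobase of exon scaled to the library's total, at 6 months, put Gstp1 of the pi class first among the class leaders, with 791 RPKM in Liver. Behind it came Gstm1 of the mu class with 693 and Ugt2b5 with 645 in Liver, and Ugt3a2 with 399 in Kidney. Next in Liver were Sult2a8, a bile acid sulfotransferase of mouse liver, with 362 and Gsta3 of the alpha class with 358, whose libraries overlapped. Sult1d1, which acts on catecholamines in the mouse, stood at 149 in Kidney. The highest Sult4a1 level, 153 RPKM, was in Brain, where this sulfotransferase has no established substrate, and the highest Gsto1 level, 77.2 RPKM, was in Lung.

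At 30 months, 25 of the 238 gene and tissue pairs tested had risen and 28 had fallen, 22.3% in all. Over all genes and tissues the test called 12.8% of pairs at that age, 6.81% higher and 5.98% lower. The Ugt genes were mostly lower, with 20 pairs that fell and 6 that rose of 55. All 7 of the 34 Sult pairs that passed had risen, and of 149 Gst pairs 12 had risen and 8 had fallen. Liver and Kidney held 34 of the 53 pairs, and 45 and 40 of the 238 tested. Over all genes Liver held 3408 and Kidney 4431 of the 15982 pairs called at that age. The median log2 fold change of the genes tested was -0.41 in Liver and 0.16 in Kidney, while the median of all genes in each tissue lay within 0.03 of 0 at every age. Of the 51 genes 36 changed in at least 1 tissue and 13 in at least 2. The shares of all genes that changed in as many tissues, or in none, are not given here, so these counts have no background.

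**Figure D1:**
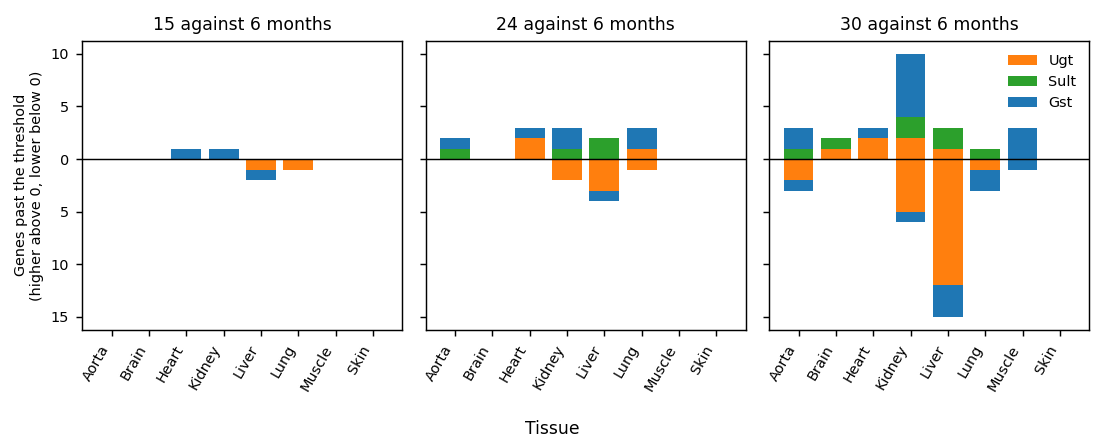
Number of Ugt, Sult and Gst genes past an adjusted p of 0.05 against 6 months, by tissue (horizontal axis) and age (panels), with genes that rose drawn above 0 and genes that fell below. In Liver at 30 months 15 genes fell and 3 rose, and in Kidney 10 rose and 6 fell.

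**Figure D2:**
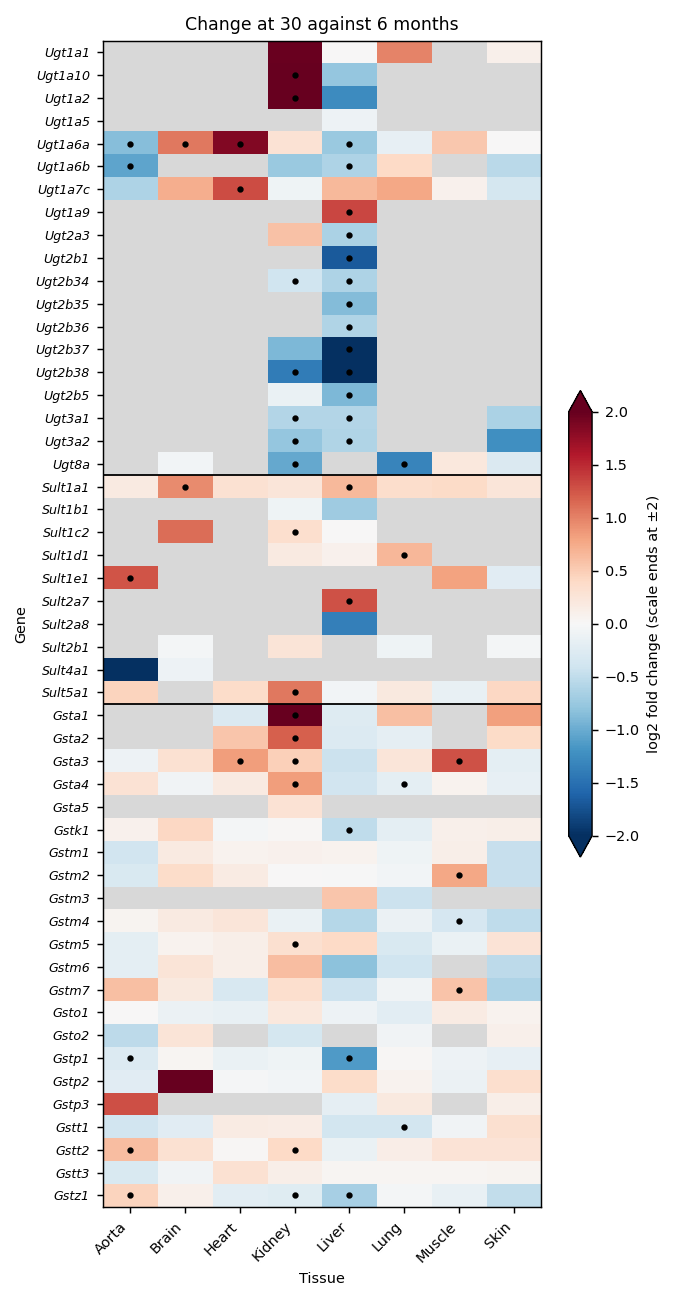
Log2 fold change at 30 against 6 months for each of the 51 genes (rows, Ugt above Sult above Gst) in each tissue (columns), from lower (blue) to higher (red), with colours that end at 2 in either direction. Black dots mark an adjusted p under 0.05 and grey cells genes below the filter on low values. The column for Liver holds dots on all 8 Ugt2 genes.

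The largest block of falls was that of the Ugt2 genes in Liver, which glucuronidate steroids and drugs. All 8 tested had fallen at 30 months, with a median log2 fold change of -0.89, where 10.3% of all genes tested in Liver had fallen and 23.8% had changed. All 8 were lower at 30 months in every fit tried. Each was called in every fit but edgeR with RLE scaling and limma-voom, in which Ugt2b37 was not. Their summed level was 93498 to 96397 normalised reads at 6 months. At 30 months it was 38545 to 63046, so that the groups did not overlap. The hepatocyte markers summed to 1608120 to 1986970 at 6 and 1563600 to 2981100 at 30 months, and the log2 fold changes of the 5 ran from -0.38 (Cps1, adjusted p = 0.0733) to 0.27 (Alb, adjusted p = 0.658). Their part in the falls was not tested.

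Ugt2b38 had the lowest log2 fold change, and its upstream sequence is shown beside those of Ugt2b37 and Ugt2b5, which resemble it most. The 250 bases before the annotated start (RefSeq, GRCm38.p6, all 3 genes on the minus strand) are at chr5:87424204-87424453 for Ugt2b38, chr5:87254789-87255038 for Ugt2b37 and chr5:87140341-87140590 for Ugt2b5. Capitals mark bases not matched to a base within the 250-base window of Ugt2b38. The run of capitals that ends Ugt2b37 lies past the end of that window, where Ugt2b38 continues in nearly the same way. The run that opens Ugt2b5 lies before its start. Such runs come from where the windows were cut.
Ugt2b38: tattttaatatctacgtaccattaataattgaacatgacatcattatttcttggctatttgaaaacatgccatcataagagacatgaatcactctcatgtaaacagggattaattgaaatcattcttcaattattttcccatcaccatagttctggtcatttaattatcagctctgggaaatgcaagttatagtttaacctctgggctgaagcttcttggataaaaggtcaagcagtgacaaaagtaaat
Ugt2b37: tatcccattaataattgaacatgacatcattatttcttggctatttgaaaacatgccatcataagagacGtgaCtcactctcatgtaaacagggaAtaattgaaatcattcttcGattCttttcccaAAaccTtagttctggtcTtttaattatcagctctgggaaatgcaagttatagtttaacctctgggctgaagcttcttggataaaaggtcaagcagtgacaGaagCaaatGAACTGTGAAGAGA
Ugt2b5: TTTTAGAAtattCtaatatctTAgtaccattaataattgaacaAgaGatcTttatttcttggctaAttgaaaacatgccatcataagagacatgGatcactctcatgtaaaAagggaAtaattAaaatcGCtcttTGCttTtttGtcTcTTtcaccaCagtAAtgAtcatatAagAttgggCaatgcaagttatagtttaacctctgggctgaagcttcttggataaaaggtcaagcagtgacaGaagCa
Within these windows Ugt2b37 matched Ugt2b38 at 90% of the 250 positions and Ugt2b5 at 84.8%, with bases outside the overlap of the windows counted as mismatches. The median over 106 pairs of genes of the same family was 59.2%. Their transcripts are alike as well: 34.1% of the 50-base words of Ugt2b38 also occur in Ugt2b5, so reads of these genes could be split between them and their separate values are uncertain.

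In Liver Ugt2b38 had 629, 503, 461 and 427 normalised reads at 6 months and 648, 942, 705 and 519 at 15. It then stood at 85.3, 199, 379 and 95.5 at 24 months and 14.3, 18.6, 0 and 42.1 at 30. All 4 libraries of 24 months and all 4 of 30 months lay below every 6-month library. With all libraries the change at 24 months did not pass. Without replicate 3 of 30 months it did (log2 fold change -1.66, adjusted p = 0.0109). At 30 months the log2 fold change was -5.55 (adjusted p = 0.000407). The size depends on the constant added to low values, from -4.80 with 5 to -6.43 with 0.1, and was -4.42 without replicate 3 of 30 months.

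Ugt2b37, at a far lower level, had 68.3, 38.8, 67.4 and 59.6 at 6 months, 283, 506, 124 and 101 at 15 and 7.15, 18.6, 5.3 and 28.9 at 30. Every 15-month library was above the 6-month libraries, though this did not pass (log2 fold change 1.83, SE 0.58, adjusted p = 0.139), and every 30-month library was below them (log2 fold change -2.14, SE 0.58, adjusted p = 0.0145). Ugt2b5, the most abundant Ugt2 gene per length, had 24573, 25705, 25927 and 26412 at 6 and 14141, 13875, 10178 and 17649.8 at 30 months. The groups were apart (log2 fold change -0.90, SE 0.15, adjusted p = 0.000828). Whether the changes of the 3 genes differ from each other was not tested.

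Ugt2b1 went from 22366, 20892, 20700.4 and 20194 at 6 months to 14221, 15087, 11459 and 11888 at 15 and 12822, 14362, 17238 and 13468 at 24. With all libraries the changes at 15 and 24 months did not pass. At 30 months Ugt2b1 had 8125, 9064, 2696 and 9203, where replicate 3 was the lowest and all 4 lay below the younger libraries (log2 fold change -1.68, SE 0.28, adjusted p = 0.000938). Ugt2b35 had already fallen at 15 months, when it had 6240.3, 4137, 4135 and 3733 against 8212, 7464, 6176 and 6228 at 6 months, with 1 library inside the 6-month range (log2 fold change -0.64, SE 0.14, adjusted p = 0.0375). That call was lost without any 1 of the 6-month libraries, of 15-month replicates 2 to 4, of 24-month replicates 2 to 4 or 30-month replicate 2 (adjusted p up to 0.147). It was also lower at 24 months (log2 fold change -0.46, SE 0.14, adjusted p = 0.047) and at 30, when it had 4118, 3723, 3276 and 4229.8 (log2 fold change -0.87, SE 0.14, adjusted p = 0.000828). The other 3 fell by 0.59 to 0.63 on the log2 scale, and none of their 30-month libraries reached the 6-month range. They were Ugt2b36 (17361 to 18865 at 6 and 9773 to 14218 at 30 months), Ugt2b34 (13544 to 14902 and 8189.9 to 10730.1) and Ugt2a3 (8035 to 8967 and 3618 to 6944).

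**Figure D3:**
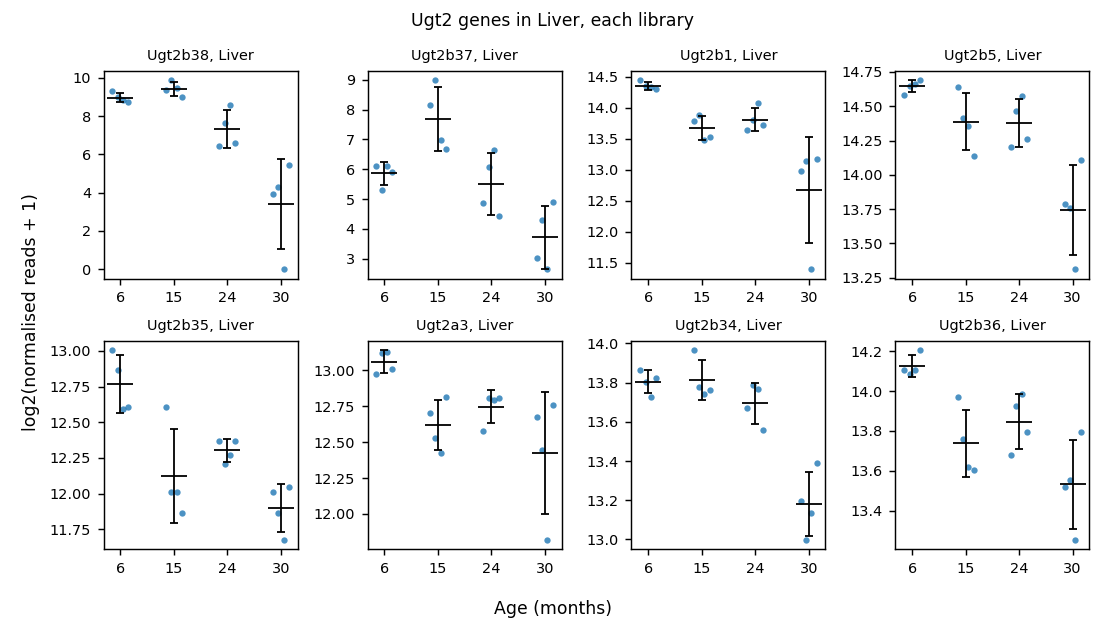
The 8 Ugt2 genes in Liver: log2(normalised reads + 1) of each library (points) by age in months, with the mean and SD of the 4 libraries. The vertical axes differ between panels and do not start at 0. Ugt2b38 and Ugt2b37 dropped to at most 42.1 and 28.9 normalised reads at 30 months, and the 30-month points of all 8 lie below those of 6 months. The share of all genes of Liver whose points lie apart in this way is not given here.

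The Ugt1 genes of Liver did not move as 1 block: 2 of 8 had fallen at 30 months and 1 had risen. Of all genes tested in Liver 23.8% had changed. Ugt1a1, the enzyme of bilirubin, had 12346, 11224, 11679 and 12848 at 6 and 12208, 10862, 13374 and 11794 at 30 months. The groups overlapped and the difference was 0.00 (adjusted p = 0.992). Ugt1a9 rose from 721, 718, 1062 and 1199.9 to 2406, 2075, 1799.8 and 3021, with every old library above every young one (log2 fold change 1.34, SE 0.26, adjusted p = 0.00213). Ugt1a6a and Ugt1a6b, which act on small planar phenols, fell. Ugt1a6a had 3309, 3317, 3391 and 3715 at 6 months, was already lower at 24 (log2 fold change -0.38, SE 0.09, adjusted p = 0.0134) and had 2267, 2148, 1696 and 2097 at 30 (log2 fold change -0.75, SE 0.09, adjusted p = 0.000198). Ugt1a6b had 2914, 3195, 2916 and 3115 and then 1965, 2049, 1911 and 1994 (log2 fold change -0.62, SE 0.07, adjusted p = 0.000198). For both, no 30-month library reached the 6-month range.

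Between 52.1% and 79.8% of the 50-base words of each Ugt1 transcript occur in other members, so reads in the shared exons may be assigned to the wrong gene and the values of single Ugt1 genes are uncertain. The stretch before each first exon is its own. The windows of Ugt1a1, Ugt1a9 and Ugt1a10 each hold a match to a motif of hepatocyte nuclear factor 1, GTTAAT followed by any base and ATT, read on either strand, and are shown because Ugt1a9 rose in Liver and Ugt1a10 in Kidney, while Ugt1a1 passed in neither. The 120 bases before the start (RefSeq, GRCm38.p6, plus strand) are chr1:88211839-88211958, chr1:88070659-88070778 and chr1:88055291-88055410, with the match in capitals.
Ugt1a1: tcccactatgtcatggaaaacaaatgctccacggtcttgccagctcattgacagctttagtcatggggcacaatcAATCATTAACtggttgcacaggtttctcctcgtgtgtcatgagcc
Ugt1a9: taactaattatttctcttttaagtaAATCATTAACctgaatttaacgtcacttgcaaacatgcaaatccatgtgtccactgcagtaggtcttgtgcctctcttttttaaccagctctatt
Ugt1a10: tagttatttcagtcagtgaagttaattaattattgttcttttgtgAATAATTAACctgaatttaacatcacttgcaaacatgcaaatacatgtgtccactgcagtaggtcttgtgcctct
Of the 44 members with a promoter entry, 4 held this motif in the 300 bases searched around a start, the other being Sult1d1. Of all 32851 promoters 131 held it, or 0.399%. That share counts promoters, while the members are counted as genes, with 55 promoters among the 44. Ugt1a1, Ugt1a9 and Ugt1a10 lie in the same locus, and Ugt1a9 and Ugt1a10 are 76.4% identical upstream. An enrichment was not tested.

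Both Ugt3 genes, whose human relatives use sugars other than glucuronic acid, fell in Liver at 30 months. Ugt3a2 had 9443, 9259, 9185 and 9947 at 6 months and 6571, 6466, 5232 and 6915 at 30, with the groups apart (log2 fold change -0.59, SE 0.09, adjusted p = 0.000444). It had fallen at 24 months as well (log2 fold change -0.37, SE 0.09, adjusted p = 0.0141). Ugt3a1 had 3250.1, 3252, 3314 and 3312 at 6 and 2639, 2765, 1142 and 2692 at 30 months. Its replicate 3 was less than any other (log2 fold change -0.59, SE 0.20, adjusted p = 0.0422), and without it the log2 fold change was -0.28, still past the threshold (adjusted p = 0.00874), while edgeR did not call the gene. With all 30-month libraries the call was lost without any 1 of the 6-month libraries or of replicates 1, 2 and 4 of 15 or 2 to 4 of 24 months (adjusted p up to 0.0819).

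Of 7 Sult genes tested in Liver, 2 rose at 30 months and none fell, where 23.8% of all genes changed. Sult1a1, the phenol sulfotransferase, went from 3716, 4119, 4668 and 4764 to 6095, 5999.6, 7259 and 5757 at 24 months (log2 fold change 0.54, SE 0.16, adjusted p = 0.0428) and 6672, 5816, 6367 and 8421 at 30 (log2 fold change 0.65, SE 0.16, adjusted p = 0.00876). Sult2a7, at a low level, went from 25.2, 43.9, 32.1 and 29.8 to 62.5, 95.9, 47.7 and 134 (log2 fold change 1.27, SE 0.27, adjusted p = 0.00381). For both, all 30-month libraries lay above the 6-month libraries. Sult2a8 had 24688, 24099, 26201 and 26746 at 6 and 18979, 18062, 1494 and 18246 at 30 months. All 4 old libraries were lower, but replicate 3 was more than 10-fold below the other 3 and the spread kept the change from passing (log2 fold change -1.37, SE 0.56, adjusted p = 0.0893). Without that library it was smaller and did pass, at -0.46 (adjusted p = 0.00509).

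Of 20 Gst genes tested in Liver 3 fell at 30 months, where 10.3% of all genes fell. Gstp1 had 25625, 24266, 25769.5 and 29345 at 6 and 11235, 13217, 8793 and 15530.2 at 30 months, with a wide gap between the groups (log2 fold change -1.13, SE 0.22, adjusted p = 0.00218). It shares 33.7% of its 50-base words with Gstp2, so its value is uncertain to that extent. Gstz1, maleylacetoacetate isomerase of tyrosine breakdown, had 17232, 16035, 16778 and 17093 and then 12079.9, 11411, 7591 and 11807 (log2 fold change -0.67, SE 0.12, adjusted p = 0.00136). Gstk1, the kappa class enzyme of mitochondria and peroxisomes, had 2234, 2033, 2186 and 2277 and then 1808, 1668, 1125 and 1627 (log2 fold change -0.51, SE 0.12, adjusted p = 0.00557). In both, replicate 3 was the lowest and the groups did not overlap. The abundant Gsta3, Gstm1 and Gstt1 gave -0.43, 0.07 and -0.37, with adjusted p of 0.0932, 0.715 and 0.067.

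Gsta2 of Liver differed most at 15 months. It had 2186, 2045, 1980.2 and 2269 normalised reads at 6 months and 1153, 799.9, 609.9 and 636 at 15, all of them lower (log2 fold change -1.45, SE 0.19, adjusted p = 0.00218). At 24 months it had 1113, 2069, 1362 and 1273 and at 30 2049, 1735, 1637 and 1638. Both later groups overlapped the young one (adjusted p = 0.0599 and 0.338). It shares 36% of its 50-base words with Gsta1.

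Replicate 3 of Liver at 30 months widened the spread that all ages share. Without it, 22 of 45 genes passed at 30 months (5 rose, 17 fell), where 18.7% of all genes passed. The 18 called with all libraries were among them, joined by Gstm3, Gstm5, Gstm6 and Sult2a8. The log2 fold changes of the Ugt2 genes were then -1.26 for Ugt2b1, -1.79 for Ugt2b37, -0.79 for Ugt2b35, -0.76 for Ugt2b5, -0.61 for Ugt2b34, -0.50 for Ugt2b36 and -0.43 for Ugt2a3, beside that of Ugt2b38 given above. Those of Ugt1a6a, Ugt1a6b and Ugt3a2 were -0.66, -0.60 and -0.51 and that of Ugt1a9 was 1.45. Gstp1 stood at -0.99, Gstz1 at -0.51, Gstk1 at -0.36, Sult1a1 at 0.68 and Sult2a7 at 1.51. At 15 months 16 passed, all of them lower, against 2 with the library in, where 4.3% of all genes passed against 1.15%. The 16 were Gsta2, Gstk1, Gstm2, Gstm4, Gstm6, Gstt1, Gstz1, Sult1b1, Sult1c2, Sult2a8, Ugt1a6a, Ugt2a3, Ugt2b1, Ugt2b35, Ugt2b36 and Ugt3a2. At 24 months 15 passed, 2 higher and 13 lower, against 6 with the library in, where 16.4% of all genes passed against 10.9%.

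In Kidney the alpha class of Gst rose at 30 months: 4 of 5 genes passed, with a median log2 fold change of 0.84, where 14.1% of all genes tested had risen and 28.2% had changed. Gsta2 had 2041, 2235, 2126 and 2455 at 6 and 5223, 3546, 8607 and 4124 at 30 months. Every old library was above every young one (log2 fold change 1.20, SE 0.22, adjusted p = 0.00106). Gsta1 had 4.8, 0, 0 and 4.05 at 6, 5.4, 13.4, 13.6 and 13.9 at 24 and 39.8, 15.9, 101 and 30.5 at 30 months, so that it was near 0 in the young and low in the old tissue. Its log2 fold change of 4.05 (adjusted p = 0.00146) depends on the constant added, from 2.66 with 5 to 5.80 with 0.1, and 46.6% of its 50-base words occur in Gsta2, at a level far above its own. Gsta4, which detoxifies 4-hydroxynonenal, had 303, 384, 371 and 319 and then 542, 372, 1565 and 452. The groups overlapped and replicate 3 was high (log2 fold change 0.84, SE 0.29, adjusted p = 0.0406). Without replicate 3 it passed at 0.39 (adjusted p = 0.0378), and without replicates 3 and 4 it did not, also at 0.39 (adjusted p = 0.0903). It did not pass either without replicate 3 of 24 months or any 1 of the 6-month libraries (adjusted p up to 0.0898).

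Gsta3 in Kidney went from 1494, 1538, 1603 and 1540.0 at 6 to 2295, 1812, 2530.4 and 2032 at 30 months, with the groups apart (log2 fold change 0.48, SE 0.09, adjusted p = 0.0015). Gstm5 was the gene of Kidney that passed at all 3 later ages: it had 1447, 1409, 1504 and 1282 at 6, 1772, 1786, 1697 and 1788 at 15, 1668, 1858, 1693 and 1924 at 24 and 1911, 1807, 1672 and 1684 at 30 months. No later library reached the 6-month range, and the log2 fold changes of 0.32, 0.34 and 0.33 lay within 1 SE of each other (adjusted p = 0.0268, 0.00298 and 0.00131). The call at 15 months was lost without replicate 1, 2 or 4 of that age or replicate 2 or 4 of 6 months (adjusted p up to 0.0863). Gstt2 also rose (log2 fold change 0.39, SE 0.14, adjusted p = 0.0412), but not without replicate 3 or 1 of that age or any 1 of the 6-month libraries (0.22 without replicate 3, adjusted p up to 0.116), though it passed without replicates 3 and 4 together (0.34, adjusted p = 0.0237). Gstz1 fell, from 5023, 5213, 5132 and 4886 to 4475, 4151, 4583 and 4020.5 (log2 fold change -0.23, SE 0.06, adjusted p = 0.00498).

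The Ugt genes of Kidney went both ways, 2 higher and 5 lower of 14, where 28.2% of all genes changed. Ugt1a10 rose from 73.9, 84, 76.2 and 181 at 6 to 369, 246, 818 and 337 at 30 months, and the groups did not overlap (log2 fold change 2.04, SE 0.46, adjusted p = 0.0041). Ugt1a2 had 21.1, 76.5, 20.3 and 53.7 at 6 and 208, 134, 6391 and 169.5 at 30 months. All old libraries were higher and replicate 3 stood more than 10-fold above the others (log2 fold change 3.48, SE 0.92, adjusted p = 0.01), and without that library the log2 fold change was 2.17. Ugt1a1, at a low level in this tissue, had 37.4, 5.02, 29.2 and 47.6 and then 85.7, 56.1, 557 and 28.4, which did not pass (adjusted p = 0.0575).

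Per length Ugt3a2 had the highest mean of the Ugt genes of Kidney at 6 months, 399 RPKM against 389 for Ugt2b38, but their libraries overlapped. Ugt3a2 was lower at each later age. It had 19969.6, 20763, 22148 and 21474 at 6, 18448, 18056, 18487 and 18779 at 15, 15320.5, 16030.5, 14948 and 13929 at 24 and 13786, 14472, 9166 and 12367 at 30 months. Each later group lay below the 6-month range, with log2 fold changes of -0.19 (adjusted p = 0.453), -0.49 (adjusted p = 0.00715) and -0.78 (adjusted p = 8.79e-05). Ugt3a1 fell likewise (log2 fold change -0.58, SE 0.11, adjusted p = 0.00136).

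Ugt2b38, which in Liver ended near 0, was measured at far higher values in Kidney, a table normalised on its own, with 11422, 13090.2, 11336 and 14298 at 6 months, and there too it fell, to 7248, 8331, 1353 and 6013. No old library reached the young range (log2 fold change -1.41, SE 0.39, adjusted p = 0.0129), and without replicate 3, the lowest, the log2 fold change was -0.81. Its neighbour in sequence, Ugt2b37, had 1531, 1888, 1750.3 and 2295 and then 1839, 1708, 223 and 1345, which overlapped (adjusted p = 0.146). Ugt8a, the galactosyltransferase that makes galactosylceramide, had 1497, 2089.7, 2226 and 2708 and then 1259, 1423, 543 and 1153, with the groups apart (log2 fold change -1.02, SE 0.24, adjusted p = 0.00464). Ugt2b34 fell a little (log2 fold change -0.40, SE 0.11, adjusted p = 0.00954), but not without replicates 3 and 4 (adjusted p = 0.0694).

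Of 6 Sult genes tested in Kidney, 2 rose and none fell, where 28.2% of all genes changed. Sult5a1 went from 13.4, 8.78, 7.62 and 16.2 to 23.5, 27.1, 23.2 and 22.1, with no overlap (log2 fold change 1.05, SE 0.25, adjusted p = 0.00532). Sult1c2 rose slightly (log2 fold change 0.33, SE 0.11, adjusted p = 0.0355) with overlapping groups, and not without replicate 1, 2 or 4 of either age (adjusted p up to 0.107), nor with the replicate number as a block (adjusted p = 0.0546). Sult1d1, the leading Sult gene of Kidney, had 5539, 5939, 6293 and 7209 at 6 and 6382, 5852, 10802 and 6186 at 30 months, with replicate 3 high and the rest within the young range (adjusted p = 0.415). Without replicate 3 of 30 months 17 Kidney genes passed, 15 of them among the 16 called with all libraries. Without replicates 3 and 4 together 16 passed, of which 14 were among those 16: Gsta4 and Ugt2b34 were lost and Gstm6 and Sult4a1 gained. The filter had left Sult4a1 out of the Kidney fit with all libraries. The shares of all Kidney genes that passed without these libraries are not given here, so these counts have no background. Without replicate 3 alone, the log2 fold changes not yet given were 3.58 for Gsta1, 0.94 for Gsta2, 0.40 for Gsta3, 0.35 for Gstm5, -0.27 for Gstz1, 0.46 for Sult1c2 and 1.06 for Sult5a1. Those of the Ugt genes were 1.69 for Ugt1a10, -0.40 for Ugt2b34, -0.42 for Ugt3a1, -0.64 for Ugt3a2 and -0.71 for Ugt8a. The markers of the proximal tubule, where much of this chemistry takes place in the kidney, summed to 156694 to 165947 at 6 months and to 113433 in replicate 3 and 139890 to 160897 in the other 30-month libraries. Of these 5 markers Lrp2 fell. Their part in the falls of Ugt genes was not tested.

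**Figure D4:**
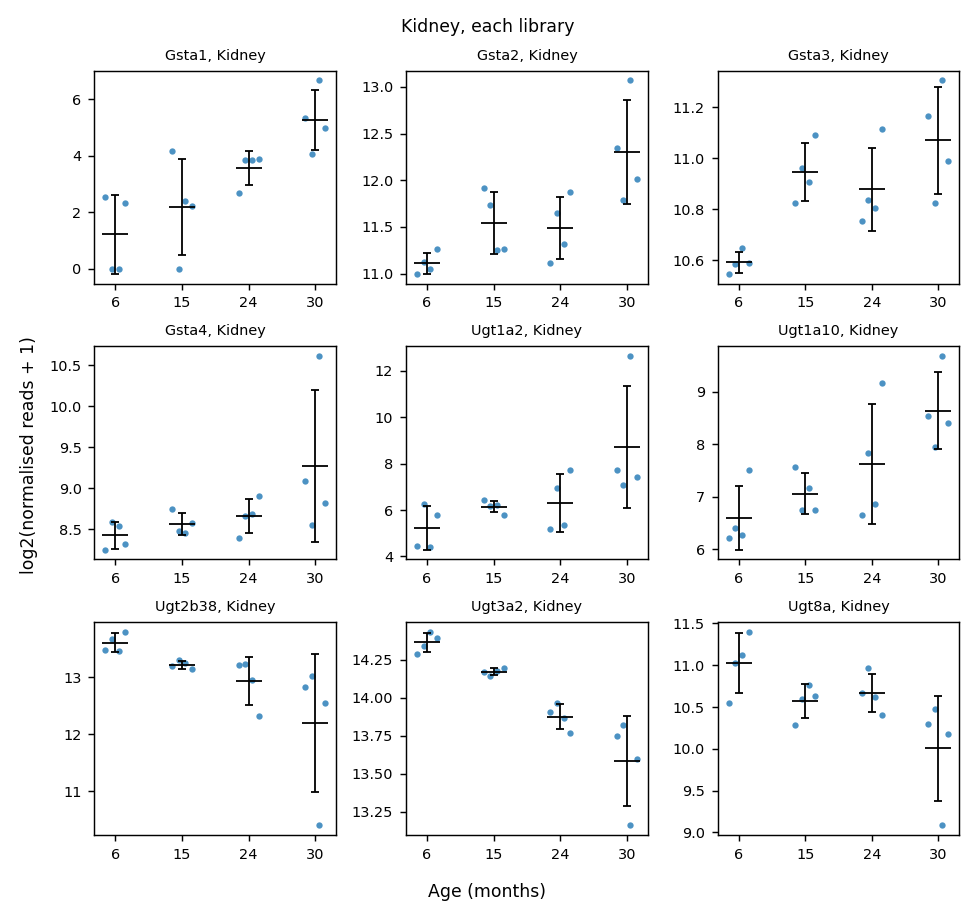
Selected genes in Kidney: log2(normalised reads + 1) of each library (points) by age in months, with the mean and SD of the 4 libraries. The vertical axes differ between panels and do not start at 0. At 30 months replicate 3 is the highest point for Ugt1a2 (6391 normalised reads) and the lowest for Ugt2b38 (1353).

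At 30 months 3 genes changed in 3 or more tissues, and they did so in different ways. Gsta3 rose in Heart, Kidney and Muscle. In Heart it had 68.1, 50.1, 69.3 and 67.7 at 6 months, and it had risen at 15 (log2 fold change 1.0, SE 0.18, adjusted p = 0.019), 24 (log2 fold change 1.13, SE 0.18, adjusted p = 0.0032) and 30 months, when it had 115, 101, 148 and 98.2 (log2 fold change 0.84, SE 0.18, adjusted p = 0.0128). No library of the later ages reached the 6-month range. In Muscle it had 15.9, 8.34, 10.7 and 19.8 and then 15.7, 27.3, 41.4 and 63.4, 1 old library lying within the young range (log2 fold change 1.27, SE 0.35, adjusted p = 0.0238). The call in Heart was lost at 30 months without replicate 3 of that age (adjusted p = 0.0522) and at 15 months without replicate 2 or 4 of that age or replicate 2 of 6 months (adjusted p up to 0.0878). That in Muscle was lost without replicate 3 or 4 of 30 months or replicate 2 or 3 of 6 months (adjusted p up to 0.0803).

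Gsta3 is shown with the 150 bases before its start at chr1:21240435-21240584 (RefSeq, GRCm38.p6, plus strand) because it holds, in capitals, a match to the core antioxidant response element, TGACNNNGC, read on either strand.
Gsta3: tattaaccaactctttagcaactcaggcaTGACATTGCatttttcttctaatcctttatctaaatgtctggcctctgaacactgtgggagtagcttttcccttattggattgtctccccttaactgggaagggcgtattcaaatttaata
Gstm5 and Gstm7 were the other members with this motif in the 300 bases searched, 3 of the 44 members with a promoter entry. It occurs in 12.4% of all promoters of that length, a share of promoters and not of genes.

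Gstz1 rose in Aorta and fell in Kidney and Liver. In Aorta it had 5474, 5629, 5970.3 and 4811 at 6 and 7150.1, 8462, 6811 and 7341 at 30 months, with no overlap (log2 fold change 0.44, SE 0.10, adjusted p = 0.0191). The call was lost without replicate 2 of 30 months (adjusted p = 0.0565). The 2 brown adipocyte markers summed to 78886, 67878, 43122 and 108193 in these 6-month libraries and to 131936, 94538, 113498 and 117691 in those of 30 months. Whether they account for the difference in Gstz1 was not tested.

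Ugt1a6a fell in Aorta and Liver and rose in Brain and Heart. In Aorta it had 222, 222, 407 and 235 at 6 and 159, 171, 132 and 124 at 30 months, with the groups apart (log2 fold change -0.85, SE 0.18, adjusted p = 0.015), and it did not pass without replicate 3 of 30 months (adjusted p = 0.0528). Ugt1a6b fell there as well, from 133, 155, 201 and 168 to 61.2, 87.2, 88.2 and 78.3 (log2 fold change -1.05, SE 0.19, adjusted p = 0.00632). In Brain Ugt1a6a had 29.6, 58.7, 34.9 and 20.9 and then 69.8, 52.2, 113 and 60.2, with overlap (log2 fold change 1.05, SE 0.29, adjusted p = 0.0345), and it did not pass without replicate 1, 3 or 4 of either age (adjusted p up to 0.13). In Heart it was scarce, at 2.88, 5.01, 2.01 and 8.33 at 6 months, 28, 14.9, 9.8 and 24.4 at 24 and 19.5, 13.4, 19.7 and 17.4 at 30, and every later library was higher (log2 fold change 1.86, SE 0.36, adjusted p = 0.00633). Ugt1a7c, which shares 52.8% of its 50-base words with it, also rose in Heart (log2 fold change 1.30, SE 0.26, adjusted p = 0.00694).

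**Figure D5:**
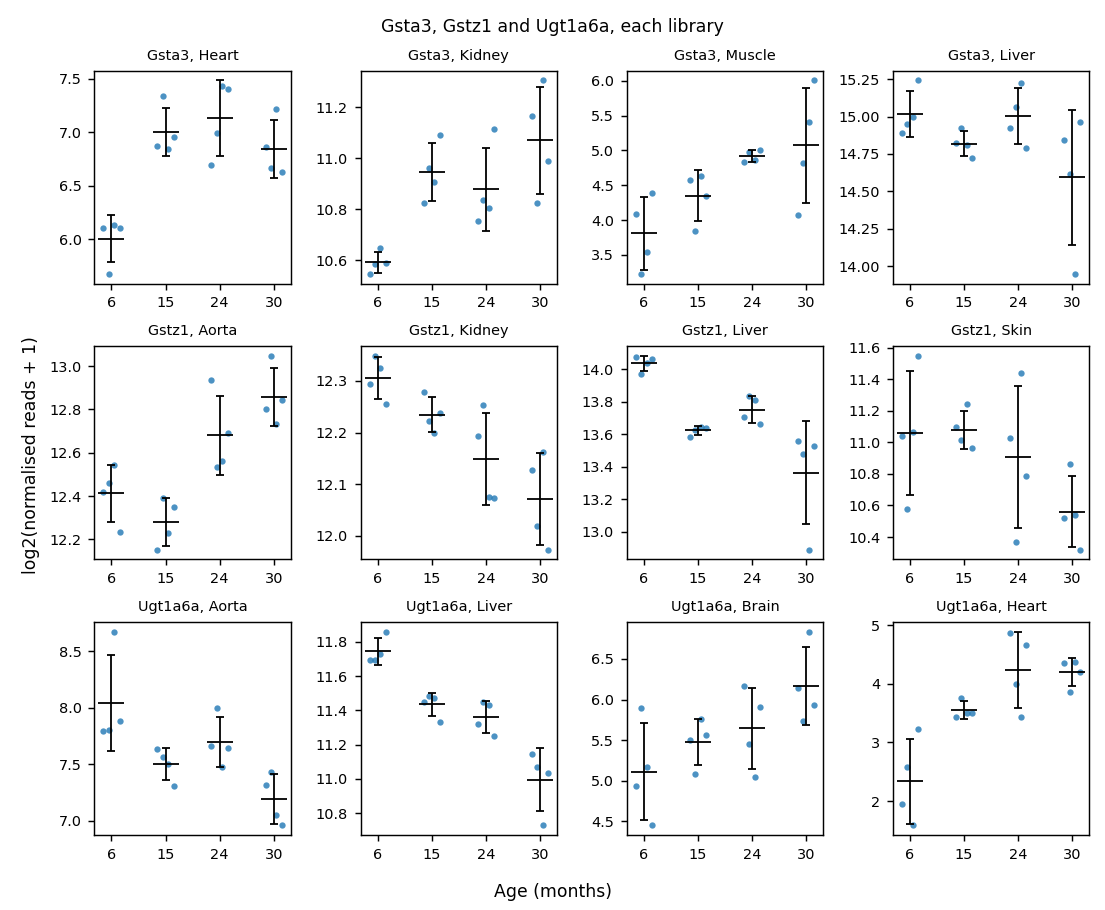
Gsta3 (top), Gstz1 (middle) and Ugt1a6a (bottom) in 4 tissues each: log2(normalised reads + 1) of each library (points) by age in months, with the mean and SD of the 4 libraries. The vertical axes differ between panels and do not start at 0. Gstz1 at 30 months lies above its 6-month points in Aorta and below them in Kidney and Liver, and Ugt1a6a falls in Aorta and Liver and rises in Brain and Heart.

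In Aorta, 3 genes rose and 3 fell of 25 at 30 months, where 3.04% and 2.55% of all genes did (5.6% in all). Sult1e1, the oestrogen sulfotransferase, had 31.8, 23.9, 53.8 and 18 at 6, 91.9, 83.9, 116 and 92.5 at 24 and 74.5, 59.6, 77.9 and 77.1 at 30 months, with both later groups above the first (log2 fold change 1.67, SE 0.27, adjusted p = 0.00336 at 24 months, log2 fold change 1.26, SE 0.27, adjusted p = 0.0149 at 30). At 30 months it missed the threshold without replicate 3 of that age or replicate 2 of 6 months (adjusted p up to 0.0521). Gstt2 of the theta class had 521, 562, 466 and 407 at 6, 823, 739.8, 859 and 984 at 24 and 699, 795, 653 and 845 at 30 months, again without overlap (log2 fold change 0.61, SE 0.13, adjusted p = 0.0151). Gstp1 fell a little, from 1181, 1201, 1170.2 and 1431 to 1054, 995, 1079 and 999.6 (log2 fold change -0.27, SE 0.07, adjusted p = 0.0421), but not without replicate 2 or 4 of 6 months, replicates 2 to 4 of 24 months or any 1 of 30 months (adjusted p up to 0.1), nor with the replicate number as a block (adjusted p = 0.0631). Without replicate 3 of 30 months, 3 genes of Aorta passed. Sult4a1 had 149, 1.19, 160.5 and 0 in Aorta at 6 months, in libraries where the neuronal markers summed to 897, 4.77, 1258 and 3.85. The libraries high in that gene were the libraries high in those markers, and the part of such tissue was not tested.

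In Muscle at 30 months 3 genes rose and 1 fell of 21, all of the Gst family, where 13.1% of all genes changed. Gstm2 had 879, 861, 857 and 857 at 6 and 1313, 1281, 1937 and 1479 at 30 months, with a clear gap between narrow young and wide old values (log2 fold change 0.78, SE 0.13, adjusted p = 0.00145). Without replicate 3 of 30 months, the highest, the log2 fold change of Gstm2 was 0.65 (adjusted p = 0.00125). Gstm7 had 55.8, 48.2, 43.4 and 46 and then 69.9, 58.3, 91.6 and 73.3, also apart (log2 fold change 0.58, SE 0.18, adjusted p = 0.0434), but it did not pass without any 1 of the 6-month libraries, of 24-month replicates 3 and 4 or of 30-month replicates 1, 3 and 4 (adjusted p up to 0.125), nor with the replicate number as a block (adjusted p = 0.0643). Gstm4 went the other way, from 196, 188, 190.2 and 170.5 to 165, 149, 144 and 129 (log2 fold change -0.34, SE 0.08, adjusted p = 0.013), and was not called when the 6- and 30-month libraries were fitted alone (adjusted p = 0.0699). Without replicate 2 or 3 of 6 months or replicate 4 of 30 months, 2 genes of Muscle passed.

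In Lung at 30 months 1 gene rose and 3 fell of 30, where 19.4% of all genes changed. Sult1d1 rose from 332, 355, 404 and 336 to 465, 811, 524 and 520.0, with replicate 2 the highest and no overlap (log2 fold change 0.67, SE 0.13, adjusted p = 0.00302). Gstt1 fell from 1103, 1109.5, 1133 and 1137 to 962, 798, 935 and 793, also without overlap (log2 fold change -0.37, SE 0.07, adjusted p = 0.00253). Ugt8a was scarce and lower at 15, 24 and 30 months, with 23.4, 22.9, 19.1 and 29.4 at 6, 5.47, 10.1, 8.34 and 8.47 at 15 and 6.79, 7.27, 10.6 and 11 at 30 months (adjusted p = 0.0344, 0.0264 and 0.00962). At 15 months it missed the threshold without any 1 library of 6 or 15 months (adjusted p up to 0.0976). Gsta4 fell slightly, from 1281, 1128, 1296 and 1215 to 1127, 1057, 1141 and 988, with overlap (log2 fold change -0.19, SE 0.06, adjusted p = 0.0383), and not without replicate 2 or 4 of 30 or 1, 3 or 4 of 6 months (adjusted p up to 0.129). Gsto1, which reduces dehydroascorbate, had 2354, 2349, 2859 and 2747 and then 2255, 2147, 2466 and 1986 (adjusted p = 0.0836). Of the 3 club cell and the 3 alveolar type 2 markers, 2 each fell in Lung at 30 months, and their part was not tested. Without replicate 3 of 30 months, 7 genes of Lung passed.

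In Brain 2 of 24 genes rose at 30 months, where 7.2% of all genes changed, and in Heart 3 of 22, where 5.16% did. The second in Brain was Sult1a1, with 95.5, 81.4, 78 and 106 at 6 and 114, 133, 406 and 145 at 30 months. All old libraries were higher, with replicate 3 far above the rest (log2 fold change 0.94, SE 0.25, adjusted p = 0.0271), and without it the log2 fold change was 0.53. Without replicate 2 or 3 of 6 months it missed the threshold (adjusted p up to 0.078). In Brain 1 gene passed without replicate 1, 2 or 4 of 6 or replicate 3 of 30 months, and in Heart 5 without replicate 4 of 24 months. Sult4a1 of Brain had 6625, 6739.9, 6893 and 6437 at 6 and 6415, 6189, 6256 and 5902 at 30 months, a difference that did not pass (log2 fold change -0.11, SE 0.04, adjusted p = 0.0894). In Skin limma-trend called 0 of 31 genes, where 0.723% of all genes changed. At an unadjusted p under 0.05 there were 6, DESeq2 called 1, limma-voom 2 and edgeR 0. Sult5a1, highest in Skin, had 1170.5, 1512, 713 and 825 and then 1369.5, 1129, 1063 and 1993, with overlap (adjusted p = 0.608).

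At 15 months 5 gene and tissue pairs passed, 2 higher and 3 lower, where 0.589% of all pairs did. They were Gsta3 in Heart, Gstm5 in Kidney, Gsta2 and Ugt2b35 in Liver and Ugt8a in Lung, all described above. At 24 months 20 passed, 13 higher and 7 lower, where 6.47% of all pairs did. Liver held 6 of these and Kidney 5, where 10.9% and 10.6% of all genes of those tissues passed. Gene and tissue pairs that passed at 24 months and not at 30 were Gsto1 in Liver (-0.35), Gstt1 in Kidney (0.20) and Gsta3 (0.32), Gstp2 (0.74) and Ugt1a7c (1.16) in Lung, the last from 133, 135, 148 and 133 at 6 to 229, 287, 245 and 557 at 24 months, with no overlap. At 30 months these 5 gave -0.09, 0.14, 0.23, 0.07 and 0.77, and that those values differ from the values at 24 months was not tested. Without replicate 3 of Liver at 30 months the numbers were 19 at 15 months and 29 at 24.

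The genes that supply, follow or regulate these enzymes were taken as 10 lists of 71 genes. In Liver at 30 months 9 of the 67 tested rose and 17 fell, where 23.8% of all genes changed. Of the glucuronate supply, Ugdh, which makes UDP-glucuronic acid, fell by 0.39 and Ugp2 by 0.53 on the log2 scale. Of the 6 pumps that export conjugates, Abcc1 (1.38) and Abcc4 (0.86) rose and Abcc3 (-0.52), Abcc6 (-0.45) and Abcg2 (-1.11) fell. Of 10 other conjugating enzymes 5 fell, among them Inmt (-1.20) and Tpmt (-0.70), which transfer methyl groups. Gclc, of glutathione synthesis, fell as well (-0.67). Mgst1, the microsomal glutathione transferase, fell (-0.92) while Hpgds, a prostaglandin D synthase of immune cells, rose (2.50). Of 6 regulators of sex-biased genes in liver, the growth hormone receptor gene Ghr fell (-0.90) and the oestrogen receptor gene Esr1 rose (1.0).

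In Kidney 13 of 67 of these genes rose and 17 fell, where 28.2% of all genes changed. Of 5 genes of glutathione supply and turnover 4 fell: Gclc (-0.56), Gclm (-0.69), Gss (-0.41) and Ggt1 (-0.64). Ugdh (-0.22), Ugp2 (-0.27) and Papss1, which makes PAPS (-0.55), fell too, while Papss2 rose (0.32). Of the pumps, Abcc3 (1.67), Abcc4 (1.22) and Abcc1 (0.28) rose and Abcg2 fell (-0.26). Of 8 listed targets of the transcription factor NRF2 outside these families 4 rose, where 14.1% of all genes did. They were Nqo1 (0.35), Akr1b8 (1.17), Cbr3 (1.29) and Ephx1 (0.71). Gclc and Gclm, which fell, are known targets too but were listed with the glutathione genes. In Heart, where Gsta3 rose and 5.16% of all genes changed, 4 of the 8 rose as well: Akr1b8 (1.30), Ephx1 (0.60), Hmox1 (0.70) and Nqo1 (0.44). Nfe2l2, which encodes NRF2, gave 0.00 in Kidney (adjusted p = 0.987) and -0.16 in Heart (adjusted p = 0.613).

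A test of the difference itself, limma-trend's F test of whether the change from 6 to 30 months varied between the 8 tissues, called 28 of the 51 genes, where 31.9% of 21683 genes were called. Of the 28, 15 had been kept by the filter in fewer than 8 tissues, 2 of them in 1 alone. Where a gene is at or near 0 reads its change is held near 0, so for these the test compares a measured change with tissues where the gene was scarcely measured. In a fit of the genes kept in all 8 tissues, chosen after seeing the data, 13 of 18 members were called, 2 Ugt and 11 Gst genes, where 43.4% of 11817 genes were called. The smallest adjusted p there were those of Gstz1 (5.82e-08), Ugt1a6a (1.52e-07) and Gstp1 (4.83e-05). Whether 1 mouse gave several of the tissues is not in the labels.

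At 30 months 15 of the 51 genes passed in no tissue: Gsta5, Gstm1, Gstm3, Gstm6, Gsto1, Gsto2, Gstp2, Gstp3, Gstt3, Sult1b1, Sult2a8, Sult2b1, Sult4a1, Ugt1a1 and Ugt1a5. Gstm1, Gsto1, Gstp2 and Gstt3 had been tested in all 8 tissues. Gsta5, Sult2a8 and Ugt1a5 had been tested in 1. A miss of the threshold does not show that a level stayed the same.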

How the data were processed

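Messenger RNA of 8 tissues at 4 ages was sequenced. Per the labels' protocols, RNAiso Plus was used for extraction and the Illumina Stranded mRNA Prep for the libraries. Per the submitters' processing notes, the reads went through FastQC, STAR, RSEM and DESeq2 on GRCm39, with versions and annotation not given in the sources used here. Each tissue has 1 table of signal, deposited by the authors, with 1 normalised column per library. In all libraries 100% of these deposited values came out as whole reads, within 0.01 reads (largest deviation 0.000605), after multiplication by 1 factor per library. All sample columns were used.

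The 16 libraries of a tissue were fitted together, with a mean for each age, by limma 3.58.1 (R 4.3.3) on log2(value + 1) with eBayes trend. Genes entered where filterByExpr (edgeR 4.0.16, minimum count 10) kept them. Contrasts of 15, 24 and 30 with 6 months were tested two-sided with Benjamini-Hochberg adjustment over the genes of that tissue, and 0.05 as the threshold. The difference between tissues was tested by an F test over the libraries of all tissues. The scripts were tested on simulated data, with a spread fixed for all genes and not taken from these data. The age fit in Liver called 14.7% of 1.5-fold, 50% of 2-fold and 98.5% of 4-fold changes, and 0.078% of unchanged genes. For changes in Liver alone, the test between tissues called 0%, 16.4% and 93.9%, and 0.14% of unchanged genes. Many changes of 2-fold or less would thus be missed at such a spread. Values are given per library for up to 3 highest and 3 lowest called changes in a tissue (mean of 50 or more), genes called in 3 or more tissues, the leading gene of each class, genes called at 15 months, and further members chosen after their values were seen. The genes and lists were chosen with earlier results of these data known. Sts, of the lists, was not analysed here.

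Alternatives were edgeR with TMM or RLE scaling and DESeq2 1.42.0 on the recovered reads, limma-voom with quality weights, reads scaled by TMM, pseudocounts of 0.1 and 5, no filter, the 2 ages alone, the replicate number as a block, and leaving out each library in turn. Leaving out replicates 3 and 4 of Kidney at 30 months together, and fitting the test between tissues on genes kept in all 8 alone, were chosen after seeing the data. Whole-read counts over genes differed between all replicates (lowest chi-square per degree of freedom 2.48). The pseudocount lowers the fitted change of scarce genes, the filter leaves the scarcest out, and depth of 7.65 to 82.8 M reads limits their precision. RPKM used recovered reads and merged GENCODE exons of GRCm38.p6. The transcripts compared by 50-base words are GENCODE's as well. Promoters and their coordinates are RefSeq's on GRCm38.p6. That is not the build of the deposited tables, which hold no coordinates. Analyses in Python 3.11.15 used pandas 2.3.3, numpy 2.4.6 and matplotlib 3.10.9.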

Additional observations from a re-analysis of the deposited data

Results flagged for a closer look

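A library far from the other 3 of its group was found in 21 of the 252 groups of 4 searched, by Dixon's test at its 95% critical value, which chance meets in about 1 in 20 groups. Gstm1 in Liver at 30 months had 29747 normalised reads in replicate 4, above the 20440.4 to 22004 of the other 3 libraries. In Liver at 30 months replicate 3 held 7591 of Gstz1, where the other 3 held 11411 to 12079.9. For Sult2a8, replicate 3 of Liver at 30 months stood at 1494, below a range of 18062 to 18979. Ugt2b1 in Liver at 30 months had 2696 normalised reads in replicate 3, below the 8125 to 9203 of the other 3 libraries. In Liver at 30 months replicate 3 held 1142 of Ugt3a1, where the other 3 held 2639 to 2765.

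In Kidney at 30 months replicate 3 held 1565 of Gsta4, where the other 3 held 372 to 542. For Sult1d1, replicate 3 of Kidney at 30 months stood at 10802, above a range of 5852 to 6382. Ugt1a2 in Kidney at 30 months had 6391 normalised reads in replicate 3, above the 134 to 208 of the other 3 libraries.

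For Gsta1, replicate 1 of Kidney at 24 months stood at 5.4, below a range of 13.4 to 13.9. Gsta3 in Heart at 6 months had 50.1 normalised reads in replicate 2, below the 67.7 to 69.3 of the other 3 libraries. In Muscle at 15 months replicate 4 held 177 of Gstm4, where the other 3 held 165 to 167. For Gstp1, replicate 4 of Aorta at 6 months stood at 1431, above a range of 1170.2 to 1201. Gstt1 in Liver at 6 months had 5406 normalised reads in replicate 4, above the 4780.3 to 4877 of the other 3 libraries. In Brain at 30 months replicate 3 held 406 of Sult1a1, where the other 3 held 114 to 145. For Sult1d1, replicate 2 of Lung at 30 months stood at 811, above a range of 465 to 524. Ugt1a10 in Kidney at 6 months had 181 normalised reads in replicate 4, above the 73.9 to 84 of the other 3 libraries. In Aorta at 6 months replicate 3 held 407 of Ugt1a6a, where the other 3 held 222 to 235. For Ugt2a3, replicate 1 of Liver at 24 months stood at 6100.5, below a range of 7113 to 7171. Ugt2b34 in Liver at 15 months had 15979.7 normalised reads in replicate 1, above the 13723 to 14049 of the other 3 libraries. In Liver at 15 months replicate 1 held 6240.3 of Ugt2b35, where the other 3 held 3733 to 4137. For Ugt3a1, replicate 2 of Kidney at 15 months stood at 4162, below a range of 4957 to 5094.

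Among the members kept by the filter in all 8 tissues, tissues differed in the change at 30 months in 2 Ugt genes, with limma-trend's adjusted p in brackets: Ugt1a6a (1.52e-07) and Ugt1a7c (0.00244). They also did so in 11 Gst genes, namely Gstz1 (5.82e-08), Gstp1 (4.83e-05), Gstk1 (0.000194), Gstm2 (0.00025), Gstm7 (0.000334), Gsta3 (0.000672), Gstm5 (0.00326), Gstm1 (0.0036), Gsta4 (0.00373), Gstm4 (0.0164) and Gstp2 (0.0263).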

How the results depend on the processing

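No direction changed in any fit: all 58 gene and tissue pairs called at 15 or 30 months and followed kept their sign. Of these, 40 stayed past the threshold in every fit that left out 1 library, 41 in the 10 other settings and 37 in both. Ugt1a2 in Kidney is counted in the 41 and the 37 on 9 settings, as the remaining setting gave it no adjusted p. Counts moved by over 1.5 times as follows, and the cause was not tested. The 5 pairs at 15 months became 18 with DESeq2, 20 with limma-voom, 3 with no filter and 23 with the 2 ages alone. The 20 pairs at 24 months became 33, 50, 11 and 41 in the same settings. DESeq2 called more of all genes than limma-trend in every tissue at both ages. In Liver it called 523 against 164 at 15 months and 1951 against 1556 at 24. For the other settings, and for fits without 1 library other than replicate 3 of Liver at 30 months, shares over all genes are not given. Those counts have no background. At 30 months the 2 ages alone gave 3 genes in Aorta (6), 0 by limma-trend in Brain (2), 5 in Heart (3) and 1 in Muscle (4). limma-voom gave 1 in Brain, 5 in Heart and 2 in Skin (0), where DESeq2 gave 1. In Brain 8 genes had an unadjusted p under 0.05 with all ages fitted, and edgeR called 2.

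Leaving out 1 library gave 4 to 19 pairs at 15 months, 16 to 29 at 24 and 50 to 61 at 30. By tissue at 30 months Liver had 17 to 26 genes, Kidney 13 to 18, Aorta 3 to 8, Lung 3 to 7, Heart and Muscle 2 to 5 each, Brain 1 to 3 and Skin 0 to 0. The test between tissues called 26 to 32 genes, 24 to 34 in other settings, and 13 where the genes kept in all 8 tissues were fitted alone, which left 18 of the 51 to test.

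Within a tissue, same-numbered libraries of different ages deviated together with a median correlation of -0.0649 (Skin) to 0.0452 (Aorta), and as low as -0.528. Libraries of different ages cannot show whether the same number in different tissues stands for 1 mouse. With the replicate number as a block there were 5 pairs at 15 and 22 at 24 months, and at 30 months 5 genes in Aorta, 16 in Kidney and 21 in Liver (3 higher, 18 lower). The test between tissues called 28 with another block, made of the libraries of the same age and number. The correlation within those blocks was 0.0145. Depth limits scarce genes such as Gsta1 in Kidney and Ugt8a in Lung.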
